A study of Mus musculus with 27 samples.

Results

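The genes described here are the MEF2 transcription factors Mef2a, Mef2b, Mef2c and Mef2d, the sine oculis homeobox factors Six2, Six4 and Six5, and the EYA coactivators Eya1 and Eya4. They are the 9 genes of these families that were listed by symbol, out of 24825 genes with a value in the files. Their levels were read in C2C12 cells, an established mouse myoblast line, over 9 groups of 3 samples each.

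Polyadenylated RNA was sequenced from 27 samples. Control cells, cells expressing full-length NFIA (a transcription factor that directs cells towards the brown adipocyte program) and cells expressing the Δpro#3 mutant (NFIA without its C-terminal proline-rich pro#3 domain) were each sampled at day 0, at day 7, and at day 7 with 10 µM forskolin for 4 h. Forskolin raises cellular cAMP. Both forms of NFIA were introduced with the same retroviral system into cells that keep their own Nfia gene, and the sources used here do not say what vector the control cells received. The cells of all 3 constructs were put through the same induction. At confluence they received isobutylmethylxanthine, indomethacin, dexamethasone, insulin, T3 and rosiglitazone with 10% serum for 48 h, and then insulin, T3 and rosiglitazone alone, so that every day 7 sample had been kept under adipogenic and not under myogenic medium. The cells are of 1 immortalized line, and no source says whether the 3 samples of a group were separate cultures, so the p-values measure only the spread between these samples, which may be technical.

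MEF2 proteins are MADS-box factors that bind A/T-rich sites in the control regions of muscle genes, where they work together with MyoD and its relatives. Class IIa histone deacetylases hold them inactive on DNA, and calcium and cAMP signals act on this hold through kinases such as the CaM kinases and the salt-inducible kinases. Sine oculis homeobox proteins bind the MEF3 site found near Myog and many muscle genes, and EYA proteins, which do not bind DNA on their own, are recruited by them and turn them into activators.

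The files gave 9567769 to 27230965 fragments a sample (median 17707223), and levels are in FPKM, fragment counts scaled to the length of the gene and to the total of the sample, which allows genes to be compared per length. Nfia itself read 0.0885 to 7.35 FPKM in the control samples, 225 to 594 FPKM with full-length NFIA and 262 to 480 FPKM with the Δpro#3 mutant. At day 0 it was 225 to 250 FPKM with full-length NFIA and 397 to 423 FPKM with the mutant. After forskolin it was 497 to 594 FPKM with full-length NFIA and 262 to 344 FPKM with the mutant, while at day 7 both forms overlapped. The part of these uneven levels in the comparisons between both forms was not tested. Replicate 2 of the control cells at day 0 held the 7.35 FPKM, against 0.879 and 0.175 FPKM in the other two, and each count of members that passed the test at day 0 was the same without it. Replicate 1 of the Δpro#3 mutant at day 7 stood apart in 10 adipocyte markers, whose summed level was 2032 FPKM there against 617 and 726 FPKM in the other two. After forskolin, replicate 1 of full-length NFIA and replicate 1 of the mutant stood apart as well. A chi-square of their fragment counts per gene was 12.8 and 14.2 against the other two of the former group, which differed from each other by 3.27, and 11.3 and 13.3 against 5.76 in the latter, where the adipocyte markers summed to 900 FPKM against 544 and 579 FPKM. Markers of macrophages (5 genes) summed to at most 26.7 FPKM and of endothelial cells (4 genes) to at most 1.43 FPKM in any group.

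In the GENCODE annotation of the build the authors used (NCBIM37, mm9), Mef2a lies on the minus strand at chr7:74376049-74517744, Mef2c on the plus strand at chr13:83643033-83806684 and Mef2d on the plus strand at chr3:87946294-87976008. Six4 is on the minus strand at chr12:74201246-74214401, Six5 on the plus strand at chr7:19679893-19683694, and Six2 on the minus strand at chr17:86083608-86087594. Eya1 (chr1:14159035-14300281) and Eya4 (chr10:22823974-23069701) are both on the minus strand. Mef2b (chr8:72676677-72691387, plus strand) lies inside the span of 2310045N01Rik on the same strand, so its fragments may have been left out of the count as ambiguous and its values are uncertain.

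Promoter windows from RefSeq (GRCm38.p6, 250 bases before to 50 after each start) were found for 8 of the 9 genes (not Eya1), 12 windows in all. They were searched on both strands for letters of the MEF2 site (CTA and TAG with 4 bases of any kind between) and the letters TCAGGTT of the MEF3 site. The NFI palindrome (TTGGC and GCCAA with 5 bases between) was searched as well. The MEF2 letters did not require A or T in the 4 bases, and no further bases of the MEF3 site were asked for. The shares of windows are therefore those of these letters and not of whole sites. These searches show which members carry the letters of their own family's sites close to their starts. Of 32851 mouse windows, 3.69% held the MEF2 letters, 4.07% the MEF3 letters and 0.0365% the NFI palindrome. The only MEF2 match in these 12 windows was in Mef2a, and the 2 MEF3 matches were in Six4 and Mef2c. None of the 12 held the NFI palindrome or the E-box letters CAGCTG of MyoD, which 16.3% of windows held, nor the cAMP response element TGACGTCA, which 1.79% held. The letters TTGGCA of the NFI recognition site, which 14.1% of windows held, were found in 1 of the 12, in Mef2d at bases -249 to -244. A match describes the letters, not a bound site. The stretches are printed 5′ to 3′ on the strand of the gene, with the match in capitals.
Mef2a, bases -92 to 8 from the start, chr7:67372851-67372950, minus strand: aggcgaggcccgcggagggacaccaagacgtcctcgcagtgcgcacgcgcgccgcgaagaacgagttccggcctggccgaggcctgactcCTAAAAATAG
Six4, bases -130 to -61, chr12:73113306-73113375, minus strand: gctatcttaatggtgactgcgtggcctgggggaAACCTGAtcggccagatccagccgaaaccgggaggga
Mef2c, bases -250 to -181, chr13:83503784-83503853, plus strand: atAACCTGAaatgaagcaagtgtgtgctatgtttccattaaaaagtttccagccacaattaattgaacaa
The Mef2a match straddles the start, from base -2 to base 8, while the MEF3 letters of Six4 (bases -97 to -91) and Mef2c (bases -248 to -242) stand on the opposite strand.

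In the myoblasts at day 0, before induction, both forms of NFIA came with lower levels of Mef2a, Mef2c, Mef2d and Six4. Mef2a was 2.41-fold lower with full-length NFIA and 2.02-fold lower with the Δpro#3 mutant, and Six4 was 1.78-fold and 1.87-fold lower. Mef2d and Eya1 fell by smaller amounts, while Six5 was higher with the Δpro#3 mutant and Eya4 higher with full-length NFIA. Mef2c fell from a mean of 1.22 FPKM in control cells to 0.682 FPKM with full-length NFIA and 0.860 FPKM with the mutant. The folds are of FPKM + 1, which understates the change of a gene as low as Mef2c. Of the 7 members with enough signal to be tested, 1 rose and 5 fell with full-length NFIA, where limma with Benjamini-Hochberg adjustment called 37.7% of the 12105 genes tested higher and 35.6% lower. With the Δpro#3 mutant again 1 rose and 5 fell, beside 32.5% of all genes higher and 29.7% lower. Against full-length NFIA the mutant was higher for 3 members and lower for 2, beside 33.4% and 31.9% of genes.

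Mef2a, the most abundant member in control cells, read 51.2, 50.2 and 50.2 FPKM in them at day 0. It read 19.8, 19.9 and 21.6 FPKM with full-length NFIA. The Δpro#3 mutant gave 23.9, 25.7 and 24.0 FPKM. The 3 groups did not overlap, and the control samples were the highest. The log2 difference from control cells, taken on FPKM + 1 throughout, was -1.27 ± 0.0402 (SE; limma adjusted p = 3.37e-10) with full-length NFIA and -1.01 ± 0.0402 (adjusted p = 4.97e-09) with the Δpro#3 mutant. The mutant stood above full-length NFIA by 0.25 (limma adjusted p = 0.000228).

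Mef2d, the member made in nearly all tissues, read 24.9, 26.6 and 26.9 FPKM in control cells, 18.7, 19.2 and 19.8 FPKM with full-length NFIA, and 24.1, 24.0 and 23.5 FPKM with the Δpro#3 mutant. All 3 groups were apart, with the mutant between the other two. Mef2d fell by 0.42 with full-length NFIA (limma adjusted p = 1.09e-06) and by 0.13 with the mutant (adjusted p = 0.0103). Mef2c, the member that marks differentiating muscle, was low everywhere at this stage, at 1.27, 1.20 and 1.19 FPKM in control cells, 0.693, 0.710 and 0.643 FPKM with full-length NFIA and 0.741, 0.808 and 1.03 FPKM with the mutant. The groups did not overlap, with full-length NFIA lowest. Its differences from control cells were -0.40 (adjusted p = 0.000292) and -0.26 (adjusted p = 0.00684), and that between both forms of NFIA was 0.14 with a 95% interval of -0.01 to 0.29 (adjusted p = 0.0891). The latter passed with untrended moderation (limma adjusted p = 0.0427) and with voom on the fragments (0.31, adjusted p = 0.0305). Mef2b, known mainly from B cells, was almost without fragments. It had 9 over all 27 samples and 0 in 20 of them, and the 3 fragments that a count of 0 allows over a group correspond to at most 0.0543 FPKM.

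Six4, a factor of muscle precursors, read 9.83, 10.2 and 9.64 FPKM in control cells at day 0. Full-length NFIA gave 4.9996, 5.22 and 5.14 FPKM and the Δpro#3 mutant 4.88, 4.93 and 4.72 FPKM. Every NFIA sample of either form lay below every control sample. The log2 differences from control cells were -0.83 (limma adjusted p = 7.10e-09) and -0.90 (adjusted p = 8.96e-09), and both forms differed from each other by -0.07 with a 95% interval of -0.15 to 0.02 (adjusted p = 0.153).

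Six5, whose gene lies beside the myotonic dystrophy kinase gene, moved the other way. It read 4.21, 4.36 and 4.77 FPKM in control cells, 4.88, 4.85 and 4.67 FPKM with full-length NFIA and 5.42, 5.49 and 5.44 FPKM with the mutant. The mutant samples were above all others, whereas the control and full-length NFIA samples overlapped. Six5 rose by 0.24 with the mutant (limma adjusted p = 0.00086), and its difference with full-length NFIA was 0.09 with a 95% interval of -0.01 to 0.19 (adjusted p = 0.0928). Six2, a factor of kidney progenitors, had 1 fragment in 1 of the 27 samples, and 3 fragments over a group correspond to at most 0.0342 FPKM.

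Among the coactivators, Eya4 read 19.4, 20.9 and 20.1 FPKM in control cells, 23.2, 23.8 and 24.5 FPKM with full-length NFIA and 20.8, 20.9 and 20.4 FPKM with the Δpro#3 mutant at day 0. The full-length NFIA samples were the highest and the other two groups overlapped. Eya4 rose by 0.23 with full-length NFIA (limma adjusted p = 8.67e-05), and the mutant differed from control cells by 0.04 with a 95% interval of -0.04 to 0.11 (adjusted p = 0.346). Eya1 read 9.21, 9.47 and 9.52 FPKM in control cells, 8.74, 8.35 and 8.35 FPKM with full-length NFIA and 7.96, 7.24 and 7.44 FPKM with the mutant. The groups did not overlap, in the order control, full-length NFIA, mutant. Eya1 fell by 0.13 (limma adjusted p = 0.0122) and by 0.28 (adjusted p = 0.000134).

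Muscle and fat markers differed between the constructs as well. The summed level of 11 skeletal muscle fibre markers at day 0 was 923 to 1003 FPKM in control cells, 11.9 to 13.9 FPKM with full-length NFIA and 62.9 to 70.2 FPKM with the mutant, and that of 8 myoblast markers was 1034 to 1044, 255 to 264 and 636 to 649 FPKM. The 10 adipocyte markers summed to 40.0 to 48.5, 432 to 459 and 318 to 335 FPKM. Their part in the member values was not tested, and in bulk RNA fewer cells of a type and less RNA in each cell cannot be told apart.

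**Figure D1:**
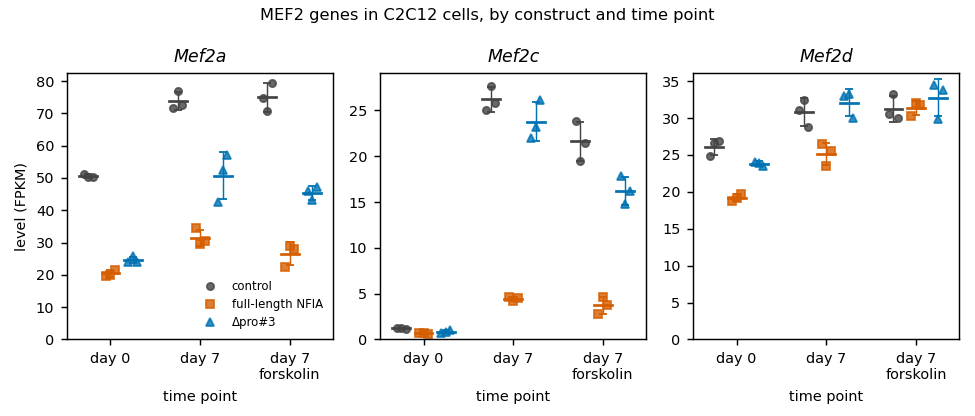
Level of Mef2a, Mef2c and Mef2d in FPKM (vertical axes, from 0) in control cells (circles), full-length NFIA cells (squares) and Δpro#3 mutant cells (triangles) at each time point. Points are samples, lines group means and bars SD (n = 3). Mef2c at day 7 is 22.02 to 27.7 FPKM in control and mutant samples and 4.18 to 4.65 FPKM with full-length NFIA.

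At day 7 the constructs parted over Mef2c. Mef2c was high in control and Δpro#3 mutant cells and low with full-length NFIA, and it was the only member past 3-fold. Mef2a and Eya4 were lowest with full-length NFIA and intermediate with the mutant, Mef2d and Six4 were modestly lower with full-length NFIA, and Six5 and Eya1 were higher with it. Against control cells, 2 members rose and 5 fell with full-length NFIA, out of 7 tested, where 31.3% of 12324 genes passed as higher and 41.1% as lower. With the mutant 1 rose, 2 fell and 4 did not pass, beside 21.3% of genes higher and 27.5% lower. Between both forms, 5 members were higher and 1 lower with the mutant, beside 34.3% and 29.4% of genes.

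Mef2c read 25.1, 27.7 and 25.9 FPKM in control cells at day 7. With full-length NFIA it read 4.65, 4.18 and 4.51 FPKM. With the Δpro#3 mutant it read 22.02, 23.1 and 26.1 FPKM, which overlapped the control samples and lay far above those with full-length NFIA. Mef2c was 4.998-fold lower with full-length NFIA than in control cells (log2 difference -2.32 ± 0.0721 SE, limma adjusted p = 1.51e-09), and 3.30% of all genes were more than 3-fold lower in that comparison. The mutant was 4.54-fold above full-length NFIA (2.18, limma adjusted p = 3.93e-09), where 2.60% of genes were more than 3-fold higher. Its difference from control cells was -0.14 with a 95% interval of -0.30 to 0.02 (limma adjusted p = 0.137).

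Mef2a read 71.8, 77.0 and 72.5 FPKM in control cells, 34.4, 29.5 and 30.5 FPKM with full-length NFIA and 42.7, 52.5 and 57.0 FPKM with the mutant. The 3 groups were apart, and the mutant sample with the most adipocyte marker RNA was the lowest of its group. The log2 differences from control cells were -1.21 (limma adjusted p = 1.55e-06) and -0.54 (adjusted p = 0.00136), the latter being -0.42 (adjusted p = 0.00144) without that sample. Mef2d read 31.1, 32.5 and 28.8 FPKM in control cells, 26.4, 23.5 and 25.6 FPKM with full-length NFIA and 33.001, 33.3 and 30.0 FPKM with the mutant. The full-length NFIA samples were below all others, by 0.28 against control cells (limma adjusted p = 0.00324), and the control and mutant samples overlapped (difference 0.06, 95% interval -0.09 to 0.21, adjusted p = 0.512).

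Six4 at day 7 read 6.21, 6.89 and 6.29 FPKM in control cells, 4.82, 4.70 and 4.82 FPKM with full-length NFIA and 5.01, 6.12 and 6.47 FPKM with the mutant. It fell by 0.37 with full-length NFIA (limma adjusted p = 0.00267), and the mutant lay between, overlapping control cells. The mutant was above full-length NFIA by 0.24 (limma adjusted p = 0.0281), which was lost without any 1 of the 3 full-length NFIA samples or of replicates 2 and 3 of the mutant, at adjusted p of up to 0.105. Six5 read 2.53, 2.37 and 2.09 FPKM in control cells, 3.48, 2.94 and 2.76 FPKM with full-length NFIA and 3.47, 2.94 and 2.85 FPKM with the mutant. Samples of either form of NFIA were above all control samples. Six5 rose by 0.28 with full-length NFIA (limma adjusted p = 0.0202), which was lost without control replicate 3 or full-length NFIA replicate 1, at adjusted p of up to 0.0814. It rose by 0.29 with the mutant (limma adjusted p = 0.0268), which was lost without control replicate 2 or 3, at adjusted p of up to 0.0910. Without the mutant sample rich in adipocyte markers the latter was 0.23 (limma adjusted p = 0.0867).

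Eya4 at day 7 read 20.4, 23.2 and 20.2 FPKM in control cells, 8.56, 8.42 and 7.44 FPKM with full-length NFIA and 14.1, 13.9 and 16.5 FPKM with the mutant. The groups were apart, with the mutant in the middle. Eya4 fell by 1.28 with full-length NFIA (limma adjusted p = 2.91e-07) and by 0.49 with the mutant (adjusted p = 0.000944), and the mutant was above full-length NFIA by 0.79 (adjusted p = 1.63e-05). Eya1 read 4.61, 4.24 and 4.22 FPKM in control cells, 5.44, 5.75 and 6.35 FPKM with full-length NFIA and 4.35, 3.65 and 4.00 FPKM with the mutant. The full-length NFIA samples were the highest, 0.35 above control cells (limma adjusted p = 0.00214), and the mutant overlapped control cells (difference -0.10, 95% interval -0.27 to 0.07, adjusted p = 0.315). Eya3, a widely expressed relative that is no member, was 17.8, 9.84 and 13.7 FPKM in the 3 groups and fell with full-length NFIA by 0.80 (limma adjusted p = 4.98e-07), as Eya4 did.

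The muscle fibre markers at day 7 summed to 13361 to 15875 FPKM in control cells, 1916 to 2588 FPKM with full-length NFIA and 15518 to 16346 FPKM with the mutant. The adipocyte markers summed to 345 to 381, 13554 to 15045 and 617 to 2032 FPKM. The 8 fibroblast and stromal markers summed to 1480 to 1659, 1388 to 1511 and 2380 to 3116 FPKM, the 4 myogenic bHLH factors to 1408 to 1639, 181 to 282 and 452 to 708 FPKM, and the 8 myoblast markers to 1084 to 1188, 563 to 653 and 1476 to 1592 FPKM. Full-length NFIA was lowest in the muscle fibre sum, as it was for Mef2c, Mef2a, Eya4, Mef2d and Six4. Eya1 was highest with full-length NFIA, and Six5 was above control cells. The mutant, in which Mef2a and Eya4 were also below control cells, overlapped control cells in the muscle fibre sum. It was highest in the fibroblast and myoblast sums and between the other two in the bHLH sum. The part of these markers in the member values was not tested.

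**Figure D2:**
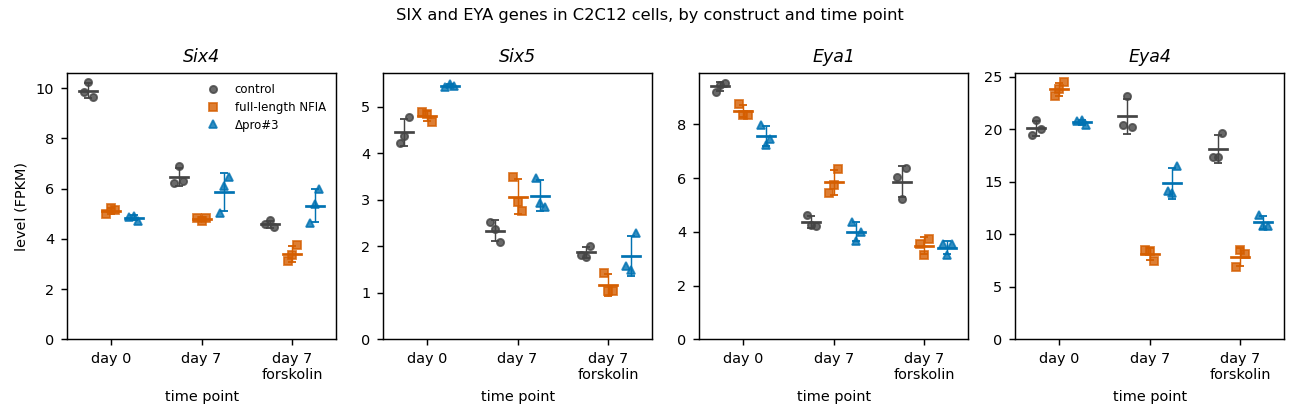
Level of Six4, Six5, Eya1 and Eya4 in FPKM (vertical axes, from 0) by construct and time point, with samples as points, group means as lines and SD as bars (n = 3). Eya4 at day 7 is 7.44 to 8.56 FPKM with full-length NFIA and 20.2 to 23.2 FPKM in control cells.

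The change from day 0 to day 7 was compared next, within each construct and between constructs. Mef2a, Mef2c and Mef2d rose in all 3 constructs and Six5 and Eya1 fell in all 3. Six4 fell in control cells and rose with the mutant, and Eya4 fell with either form of NFIA but did not pass in control cells. In control cells 3 members rose and 3 fell, where 36.0% of 12408 genes rose and 42.7% fell. With full-length NFIA 3 rose and 3 fell (33.2% and 46.5% of genes), and with the mutant 4 rose and 3 fell (32.8% and 46.7%). The median change of all genes was -0.06 in control cells and -0.11 with either form of NFIA. After median-ratio scaling, which brought the median with full-length NFIA to 0.02, all of these member calls still passed.

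Mef2c rose 12.2-fold in control cells (log2 change 3.61 ± 0.0682 SE, limma adjusted p = 8.15e-17), 3.24-fold with full-length NFIA (1.69, adjusted p = 4.47e-13) and 13.3-fold with the mutant (3.73, adjusted p = 2.76e-17). These folds are of FPKM + 1, which understates the change of a gene this low at day 0. The group means went from 1.22 to 26.2, from 0.682 to 4.45 and from 0.860 to 23.8 FPKM, and with voom on the fragments the log2 changes were 4.42, 2.66 and 4.78. More than 3-fold rises were seen in 3.65%, 5.38% and 3.91% of genes. The rise with full-length NFIA was smaller than that in control cells by 1.92 ± 0.0964 (limma adjusted p = 2.79e-11, in a test where 71.2% of genes differed). The rise with the mutant exceeded that with full-length NFIA by 2.04 (adjusted p = 2.26e-11; 63.5% of genes differed) and differed from that in control cells by 0.12 with a 95% interval of -0.08 to 0.33 (adjusted p = 0.332), though with voom on the fragments this last difference was 0.36 and passed (limma adjusted p = 0.0390).

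Mef2a rose by 0.54 in control cells, 0.60 with full-length NFIA and 1.01 with the mutant (limma adjusted p = 9.58e-06, 2.79e-06 and 4.35e-09). The rise with the mutant was larger than in control cells by 0.47 (limma adjusted p = 0.00278; 44.7% of genes differed) and than with full-length NFIA by 0.41 (adjusted p = 0.00452). Mef2d rose by 0.23, 0.37 and 0.41, and no difference between these rises passed the test, though after scaling either form of NFIA gave a larger rise than control cells (0.22 and 0.25, limma adjusted p = 0.0132 and 0.0125). With voom on the fragments the larger rise with the mutant passed too (0.19, limma adjusted p = 0.0473).

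Six4 fell by 0.55 in control cells (limma adjusted p = 6.49e-07) and rose by 0.23 with the mutant (adjusted p = 0.0042). With full-length NFIA its change was -0.08 with a 95% interval of -0.22 to 0.06 (limma adjusted p = 0.252), and 0.04 after scaling. The changes with the mutant and with full-length NFIA differed from that of control cells by 0.77 (limma adjusted p = 3.83e-06) and 0.47 (adjusted p = 0.000239). Six5 fell by 0.71, 0.52 and 0.66 in control, full-length NFIA and mutant cells, and no difference between these falls passed the test, while after scaling the fall was smaller with full-length NFIA than in control cells by 0.26 (limma adjusted p = 0.0355).

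Eya4 in control cells had a change of 0.07 with a 95% interval of -0.06 to 0.21 (limma adjusted p = 0.308). It fell by 1.44 with full-length NFIA (adjusted p = 1.98e-12) and by 0.45 with the mutant (adjusted p = 6.58e-06). Both changes differed from that of control cells, by -1.52 (limma adjusted p = 2.98e-10) and -0.53 (adjusted p = 0.000196). Eya1 fell by 0.96, 0.47 and 0.77 in control, full-length NFIA and mutant cells, and its fall was smaller with full-length NFIA than in control cells by 0.49 (limma adjusted p = 7.58e-05).

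The make-up of the MEF2 pool differed between constructs. The summed MEF2 level was 77.9 ± 0.485 FPKM in control cells, 40.4 ± 1.45 FPKM with full-length NFIA and 49.3 ± 1.04 FPKM with the mutant at day 0 (SD, n = 3). It was 131 ± 5.55, 61.1 ± 4.12 and 107 ± 7.95 FPKM at day 7. Mef2c made up 1.57%, 1.69% and 1.75% of the sum at day 0, and 20.0%, 7.28% and 22.3% at day 7. Mef2a made up 64.9% of the sum in control cells at day 0 and 50.6% and 49.8% with full-length NFIA and the mutant. With full-length NFIA at day 7 the pool was smaller than in the other two constructs, and Mef2d held 41.2% of it, against 23.6% in control cells and 30.3% with the mutant.

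**Figure D3:**
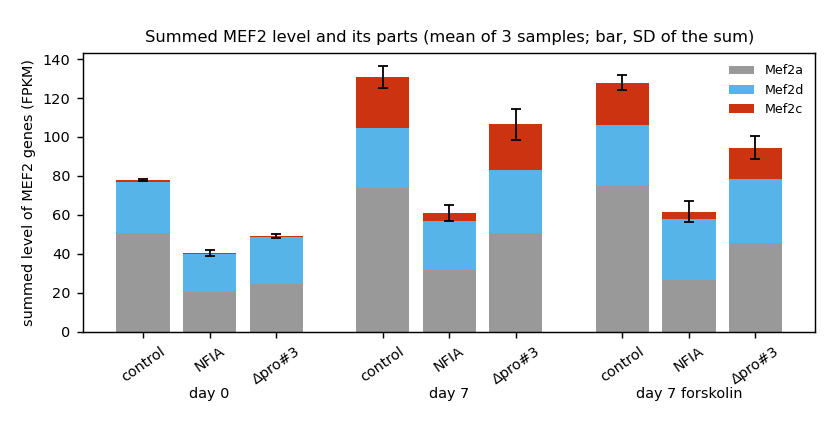
Summed level of the MEF2 genes in FPKM (vertical axis, from 0) by construct and time point, as stacked group means of Mef2a (grey), Mef2d (blue) and Mef2c (red), with the SD of the sum over 3 samples as a bar. At day 7 the sum is 131 FPKM in control cells and 61.1 FPKM with full-length NFIA, and the Mef2c part is visible in all 3 constructs but smallest with full-length NFIA.

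Forskolin is used to mimic adrenergic stimulation of adipocytes, and 2 to 5 of the 7 members tested changed with it in a construct. In control cells Eya1 rose and Six4 fell after 4 h, and the other 5 members did not pass the test, where 7.05% of 12245 genes rose and 13.5% fell. With full-length NFIA Mef2d rose while Mef2a, Six4, Six5 and Eya1 fell (13.9% of genes rose and 41.5% fell), and with the mutant Mef2c, Six5 and Eya4 fell (11.9% rose and 23.9% fell). The median log2 change of all genes after forskolin was -0.05 in control cells, -0.15 with full-length NFIA and -0.06 with the mutant. After median-ratio scaling of the samples it was -0.04 with full-length NFIA, where the changes of Mef2d, Six4, Six5 and Eya1 were 0.44, -0.29, -0.83 and -0.50 and still passed, and that of Mef2a was -0.11 (limma adjusted p = 0.367) and did not.

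Eya1 read 6.02, 5.22 and 6.37 FPKM in control cells after forskolin, 3.56, 3.16 and 3.75 FPKM with full-length NFIA and 3.55, 3.13 and 3.55 FPKM with the mutant. The control samples were above all others, whereas without forskolin the full-length NFIA samples had been the highest. Eya1 rose by 0.36 in control cells (limma adjusted p = 0.00468) and fell by 0.61 with full-length NFIA (adjusted p = 1.02e-05). The change with the mutant was -0.18 with a 95% interval of -0.35 to -0.01 (adjusted p = 0.0932). The response with full-length NFIA differed from that of control cells by -0.96 (limma adjusted p = 1.16e-05, in a test where 30.6% of genes differed), and that with the mutant by -0.54 (adjusted p = 0.0111; 4.97% of genes differed). Both forms of NFIA differed from each other in the response of Eya1 by 0.43, mutant minus full-length NFIA (limma adjusted p = 0.0135; 21.7% of genes differed). Eya4 read 17.4, 17.3 and 19.6 FPKM in control cells, 6.86, 8.501 and 8.16 FPKM with full-length NFIA and 11.8, 10.8 and 10.8 FPKM with the mutant after forskolin. The order of the groups was that of day 7, and the fall of 0.38 with the mutant passed the test (limma adjusted p = 0.00242).

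Six5 read 1.82, 1.77 and 2.01 FPKM in control cells after forskolin, 1.43, 1.04 and 1.04 FPKM with full-length NFIA and 1.59, 1.499 and 2.28 FPKM with the mutant. The full-length NFIA samples were the lowest, and control and mutant samples overlapped. Six5 fell by 0.91 with full-length NFIA (limma adjusted p = 3.12e-06) and by 0.56 with the mutant (adjusted p = 0.000751), and the response with full-length NFIA differed from that of control cells by -0.69 (adjusted p = 0.00281). Six4 read 4.57, 4.73 and 4.46 FPKM in control cells, 3.12, 3.35 and 3.75 FPKM with full-length NFIA and 4.65, 5.37 and 5.97 FPKM with the mutant. The full-length NFIA samples were below all others, and control and mutant samples overlapped. It fell by 0.42 in control cells (limma adjusted p = 0.00235) and by 0.39 with full-length NFIA (adjusted p = 0.00107), and its difference in mutant cells was -0.12 (95% interval -0.30 to 0.07, adjusted p = 0.314).

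Mef2d read 30.5, 33.3 and 30.0 FPKM in control cells, 30.3, 32.0 and 31.8 FPKM with full-length NFIA and 34.5, 29.9 and 33.9 FPKM with the mutant after forskolin, and all 3 groups overlapped. Its rise with full-length NFIA was 0.31 (limma adjusted p = 0.000951), and the difference of this response from that of control cells, 0.29 (adjusted p = 0.0296), was lost without any 1 of 7 of the 18 samples in its fit, at adjusted p of up to 0.0761. Mef2a read 74.8, 70.6 and 79.4 FPKM in control cells, 22.5, 29.0 and 28.1 FPKM with full-length NFIA and 46.0, 43.1 and 47.3 FPKM with the mutant. The groups were apart in the same order as at day 7. Its change with full-length NFIA was -0.24 (limma adjusted p = 0.0479). This call was lost without any 1 of 13 of the 18 samples in its fit, at adjusted p of up to 0.2499. It was also lost with no filter on low values (limma adjusted p = 0.0793), untrended moderation (0.0557) or only the groups of the contrast (0.0742). With the mutant sample rich in adipocyte markers left out, the change of Mef2a in mutant cells became -0.26 (limma adjusted p = 0.0467) in place of -0.14 (adjusted p = 0.278). Mef2c read 23.8, 19.5 and 21.5 FPKM in control cells, 2.73, 4.65 and 3.74 FPKM with full-length NFIA and 17.8, 14.8 and 16.2 FPKM with the mutant. The full-length NFIA samples were far below the others and the mutant samples below all control samples. The fall of Mef2c with the mutant after forskolin was 0.52 (limma adjusted p = 0.00247), and no difference in its response between constructs passed the test. Without replicate 1 of full-length NFIA after forskolin, its fall in control cells passed as well (0.27, limma adjusted p = 0.03997), as it did when only the groups of the contrast were fitted (adjusted p = 0.0270).

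Between constructs after forskolin, full-length NFIA held 6 members below control cells, with Mef2d as the exception, where 25.5% of 12121 genes were higher and 47.0% lower. The mutant was below control cells for 4 members (19.5% of genes higher, 27.1% lower) and above full-length NFIA for 5 (42.0% higher, 24.2% lower). Mef2c was 4.86-fold lower with full-length NFIA than in control cells (limma adjusted p = 7.20e-08; 3.77% of genes were more than 3-fold lower) and 3.71-fold higher in mutant than in full-length NFIA cells (adjusted p = 4.64e-07; 2.89% of genes were more than 3-fold higher). The difference between the mutant and control cells in Mef2c, -0.39, was near the threshold (limma adjusted p = 0.0366) and was lost without control replicate 1 or 3 or mutant replicate 2 or 3, at adjusted p of up to 0.127. It was also lost with a pseudocount of 0.1 (limma adjusted p = 0.0621), after median-ratio scaling (-0.34, adjusted p = 0.0650), with no filter on low values (adjusted p = 0.0760) and with the replicate block (adjusted p = 0.0621). The median of all genes between full-length NFIA and control cells was -0.17 here and -0.01 after median-ratio scaling, under which Six4 no longer passed (-0.19, limma adjusted p = 0.0717) and Mef2d was higher with full-length NFIA (0.19, adjusted p = 0.0273). Six5 was above full-length NFIA in mutant cells by 0.36 (limma adjusted p = 0.0187), which was lost after scaling (0.28, adjusted p = 0.0535) and without full-length NFIA replicate 2 or 3 or mutant replicate 3, at adjusted p of up to 0.0750. The muscle fibre markers after forskolin summed to 13276 to 15850 FPKM in control cells, 1670 to 1966 FPKM with full-length NFIA and 12978 to 15150 FPKM with the mutant, and the adipocyte markers to 302 to 313, 12995 to 13714 and 544 to 900 FPKM, and their part in these differences was not tested. Without replicate 1 of the mutant after forskolin, Six4 was higher in mutant than in control cells (0.25, limma adjusted p = 0.0349), and without replicate 1 of either form of NFIA after forskolin 4 members in place of 2 differed in response between both forms. Without that replicate of full-length NFIA these included Mef2c (-0.45, limma adjusted p = 0.0250) and Eya4 (-0.41, adjusted p = 0.0178), and without that of the mutant Six4 (0.36, adjusted p = 0.0422) and Eya4 (-0.37, adjusted p = 0.0497).

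**Figure D4:**
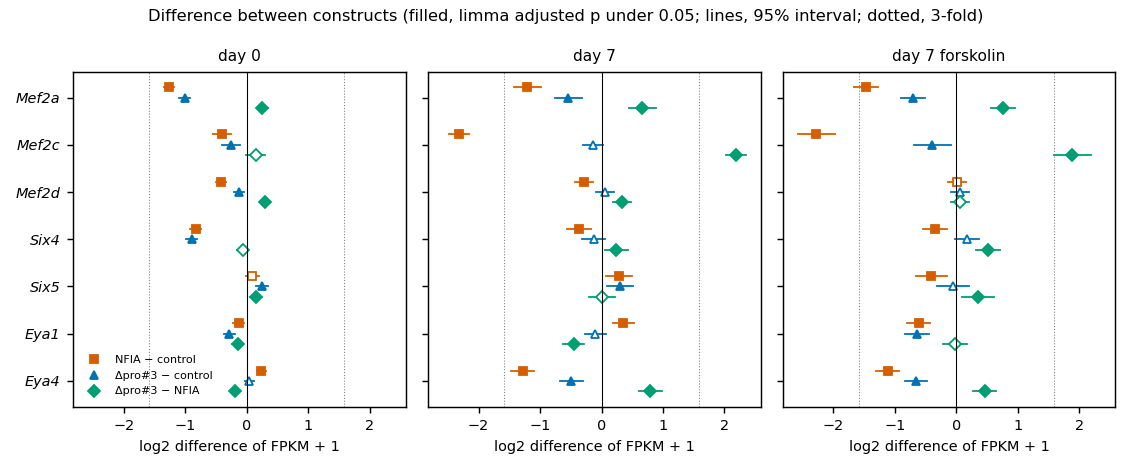
Log2 difference of FPKM + 1 (horizontal axes) of the 7 tested members between constructs at day 0, day 7 and day 7 with forskolin, as full-length NFIA minus control (squares), Δpro#3 minus control (triangles) and Δpro#3 minus full-length NFIA (diamonds). Lines are 95% intervals, filled symbols have a limma adjusted p under 0.05, and dotted lines mark 3-fold. Mef2c with full-length NFIA is at -2.32 at day 7.

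**Figure D5:**
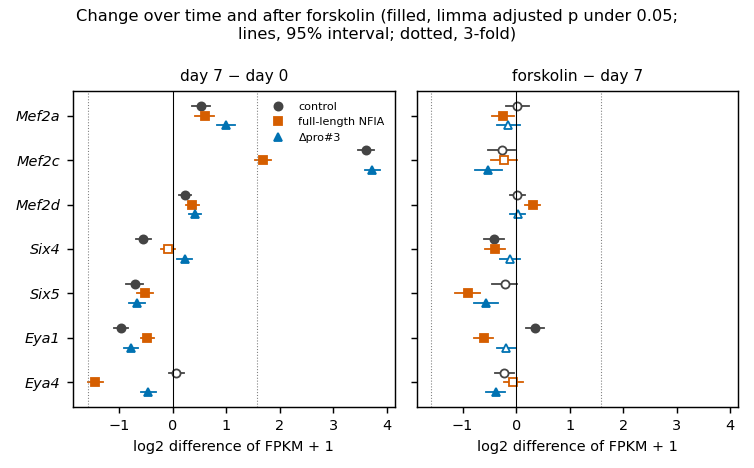
Log2 difference of FPKM + 1 (horizontal axes) of the 7 tested members from day 0 to day 7 (left) and from day 7 to forskolin (right) in control cells (circles), full-length NFIA cells (squares) and Δpro#3 mutant cells (triangles), with 95% intervals as lines. Filled symbols have a limma adjusted p under 0.05, and the dotted lines mark 3-fold, with Mef2c on the left between 1.69 and 3.73.

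Genes on which MEF2 factors act in muscle were counted from a list of 14, which covers Ckm, Mb, Des and sarcomere genes such as Myom2, Xirp1 and Smpx. At day 0 they summed to 535 to 549 FPKM in control cells, 111 to 120 FPKM with full-length NFIA and 306 to 314 FPKM with the mutant. Of the 14, 12 had a mean of at least 0.5 FPKM in control cells, 1 with full-length NFIA and 7 with the mutant, so most could be tested only through the control cells and no count of calls is given for this stage. At day 7, the 13 that reached 0.5 FPKM in all 3 constructs were lower with full-length NFIA, where 41.1% of all genes were, and Xirp2 (0.286 against 5.21 FPKM in control cells) was tested only through the other groups, while with the mutant 8 were higher, 5 lower and 1 did not pass (median 0.45, all genes -0.04, 21.3% higher and 27.5% lower). The largest falls with full-length NFIA at day 7 were those of Smpx (-3.89, from 215 FPKM in control cells to 13.5 FPKM), Myoz2 (-3.33), Hrc (-3.12) and Lmod3 (-3.04). The 14 genes summed at day 7 to 2280 to 2761 FPKM in control cells, 570 to 657 FPKM with full-length NFIA and 3095 to 3280 FPKM with the mutant. Ckm is also one of the muscle fibre markers and Des one of the myoblast markers.

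The list of 11 target genes of sine oculis homeobox factors held the myogenic factors Myog, Myf6 and Myod1, fast-fibre genes such as Tnnt3, Tnni2 and Pvalb, and the glycolytic genes Aldoa and Eno3. At day 0 they summed to 1199 to 1237 FPKM in control cells, 701 to 730 FPKM with full-length NFIA and 860 to 883 FPKM with the mutant. The 7 that reached 0.5 FPKM with full-length NFIA were lower there than in control cells, and with the mutant 5 of 8 were lower and 3 did not pass, beside 35.6% and 29.7% of all genes lower. Tnni2, at 0.187 FPKM with full-length NFIA against 50.6 FPKM in control cells, could be tested only through the other groups. At day 7, 9 of 10 were lower and 1, Aldoa, higher with full-length NFIA (median -2.15, all genes -0.08, 41.1% of genes lower), while with the mutant 4 were higher, 5 lower and 1 did not pass (median -0.19, all genes -0.04, 21.3% of genes higher and 27.5% lower). Myf6 fell most with full-length NFIA, from 126 to 0.544 FPKM (-6.35), followed by Pvalb (-3.24), Tnnt3 (-3.13) and Tnni2 (-3.11). Myog, Myf6 and Myod1 are also among the myogenic bHLH factors, and Tnnt3 is among the muscle fibre markers. Myod1 and Myf5 are in both the bHLH and the myoblast lists, so the sums of these lists are not separate observations.

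Of the 10 class IIa deacetylases and MEF2 cofactors, 8 reached 0.5 FPKM with full-length NFIA at day 0. Of these, 2 rose and 4 fell against control cells, where 37.7% of all genes rose and 35.6% fell, with Hdac4 at -0.77 and Maml1 at -0.35. Mamstr, a MEF2 coactivator, read 3.46 FPKM in control cells, 0.254 FPKM with full-length NFIA and 0.548 FPKM with the mutant, and Hdac9 read 2.82, 0.104 and 0.294 FPKM, so both could be tested only through the groups where they were higher. At day 7, 1 of 9 rose and 2 fell with full-length NFIA, beside 31.3% and 41.1% of all genes, with Mamstr at -1.35, Hdac4 at -1.003 and Hdac7 at 0.71. After forskolin Hdac4 and Hdac5 moved in opposite directions, each in the same direction in all 3 constructs, and no difference in their response between constructs passed the test (limma adjusted p = 0.0987 to 0.953). Hdac5 fell by 0.99 in control cells, 1.19 with full-length NFIA and 0.91 with the mutant, and Hdac4 rose by 0.81, 0.69 and 0.80.

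Of 14 kinases and phosphatases upstream of MEF2, 13 could be tested. Sik1, a cAMP-responsive kinase of class IIa deacetylases, was lower with full-length NFIA than in control cells at day 7 (-1.91, 6.47 against 26.99 FPKM), whereas its relative Sik2 was higher (2.39, 43.1 against 7.39 FPKM), as was Camk1 (1.63). After forskolin Sik1 rose in control, full-length NFIA and mutant cells, by 1.07, 1.96 and 1.44. Of 7 early-response genes under MEF2 control, 3 rose in control cells after forskolin, 5 with full-length NFIA and 1 with the mutant, beside 7.05%, 13.9% and 11.9% of all genes. By the test of the difference, the response of 6 of the 7 differed between full-length NFIA and control cells (30.6% of all genes differed), in each case upward with full-length NFIA, and that of 0 of 7 differed between the mutant and control cells (4.97% of all genes differed). Nr4a1 rose by 0.81 in control cells, by 3.27 with full-length NFIA, from 12.2 to 126 FPKM, and by 0.88 with the mutant.

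Genes whose pattern over the 9 group means was most like that of a member were looked up among 6435 genes with a mean of at least 1 FPKM and a group range of at least 1 on the log2 scale. The correlations describe 9 means that share libraries and carry no test. For Mef2c they were Bcam (Pearson r = 0.998) and Mybpc1 (0.995), the latter encoding a sarcomere protein. For Mef2a they were Klf5 (0.988), Mylk2 (0.982) and Ubash3b (0.980), and for Mef2d Kdm7a (0.965), Serinc3 (0.953) and Fhl1 (0.941). For Six4 they were Mfap3l (0.961), Rhobtb2 (0.949) and Vash2 (0.944), and for Six5 Irak1bp1 (0.991), Map3k12 (0.991) and Elmo2 (0.981). For Eya1 they were Mvb12b (0.962), Nynrin (0.961) and Socs1 (0.956), and for Eya4 Snhg18 (0.987), Postn (0.981) and Fzd2 (0.977). With the correlation taken over the 27 samples, 1 of the 3 genes was shared for each of Mef2a, Six5 and Eya4.

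The order of the members in a group shows what the constructs changed in relative terms. In control cells at day 0 the order by level was Mef2a, Mef2d, Eya4, Six4, Eya1, Six5 and Mef2c, with no overlap between neighbours. With full-length NFIA at day 0, Eya4 was first at 23.8 FPKM, ahead of Mef2a at 20.4 FPKM. At day 7 Mef2c stood directly behind Mef2a and Mef2d in control and mutant cells (26.2 and 23.8 FPKM), and with full-length NFIA (4.45 FPKM) it stood behind Eya4, Eya1 and Six4 too. After forskolin Mef2d was first with full-length NFIA at 31.4 FPKM, ahead of Mef2a at 26.5 FPKM, while Mef2a stayed first in control and mutant cells.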

How the data were processed

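RNA-seq of 27 C2C12 samples (3 constructs, 3 conditions, 3 replicates) was used. The authors aligned paired reads to mm9 with STAR 2.5.3a, kept uniquely mapped reads, counted the matched strand and deposited FPKM for each sample, unscaled between samples; the annotation is not given in the sources used here. Other experiments of the study were not analysed here. Whole fragments (at least 99.96% of values, tolerance 0.02) were worked back from FPKM and gene length for depth and the voom alternative.

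Values were compared as log2(FPKM + 1) with limma 3.58.1 in R 4.3.3, with trended moderation, 1 mean per group and Benjamini-Hochberg adjustment over all genes with a mean of at least 0.5 FPKM. Genes passed at an adjusted p under 0.05. Fits used the 9 samples of a time point, or 18 for changes and their differences, and all comparisons share samples. Mef2b and Six2 were below the filter, and the exact permutation test of 3 against 3 samples cannot go below 0.1.

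Members and gene lists were chosen with earlier results of these data known. Named were all 9 members, up to 4 genes of a list with the largest change past the test, and the 3 genes most like each member, except items that are not reported here; Eya3 and genes followed across conditions were named after their values were seen. Alternatives were a pseudocount of 0.1, median-ratio scaling, no filter, a minimum of 5 FPKM, fits of fewer groups, untrended moderation, a replicate block, voom and leaving out each sample. Python 3.11.15 and matplotlib 3.10.9 drew the figures. The day 0 fit was tested on simulated data for full-length NFIA against control cells, and the other fits were not tested in this way.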

Additional observations from a re-analysis of the deposited data

Results flagged for a closer look

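Several members changed differently from day 0 to day 7 or after forskolin in cells of different constructs, by the test of the difference itself in limma with Benjamini-Hochberg adjustment. For the change from day 0 to day 7, full-length NFIA differed from control cells in Mef2c (-1.92), Six4 (0.47), Eya1 (0.49) and Eya4 (-1.52) on the log2 scale of FPKM + 1. The Δpro#3 mutant differed from control cells in Mef2a (0.47), Six4 (0.77) and Eya4 (-0.53). The mutant differed from full-length NFIA in Mef2a (0.41), Mef2c (2.04), Six4 (0.31), Eya1 (-0.30) and Eya4 (0.99).

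For the response to forskolin, full-length NFIA differed from control cells in Mef2d (0.29), Six5 (-0.69) and Eya1 (-0.96), and the mutant from control cells in Eya1 (-0.54). The mutant differed from full-length NFIA in Mef2d (-0.28) and Eya1 (0.43). The difference of Mef2d (limma adjusted p = 0.0432) was lost without any 1 of 10 of the 18 samples in its fit, at adjusted p of up to 0.114. Eya1 is the member whose response differed between all 3 pairs of constructs, and its direction differed as well, since it rose in control cells and fell with full-length NFIA. With 3 samples a group, samples were not screened for outliers.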

How the results depend on the processing

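Of 735 recomputed values of the 95 called member changes under settings other than leaving out a sample, 721 kept their direction and call, 14 lost the call and none reversed. When each sample was left out in turn, 1231 of 1278 kept the call, 47 lost it and none reversed. Median-ratio scaling turned the sign of member changes that had not passed, for Six5 between the mutant and full-length NFIA at day 7 (-0.0235), Mef2d between them after forskolin (-0.0762), Six4 from day 0 to day 7 with full-length NFIA (0.0426), Eya4 after forskolin with full-length NFIA (0.0726) and Mef2d in the forskolin response of the mutant against control cells (-0.0052). A pseudocount of 0.1 did so for Mef2c in the forskolin response of full-length NFIA against control cells (-0.0049).

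Counts of members that moved by more than a set ratio are given here, and smaller shifts are left out except where named. The change from day 0 to day 7 differed between the mutant and control cells for 3 members and for 5 under scaling or voom. The forskolin response differed between the mutant and full-length NFIA for 2 members, for 1 with no filter, untrended moderation or only the groups of the contrast, and for 1 to 4 when samples were left out. After scaling, Mef2d and Eya1 still passed there and Eya4 passed as well (-0.42, limma adjusted p = 0.0216). A minimum of 5 FPKM, which leaves fewer members to test, took full-length NFIA against control cells after forskolin from 6 to 3, the mutant against full-length NFIA there from 5 to 3, forskolin in control cells from 2 to 1 and with full-length NFIA from 5 to 3, and the differences in response from 3 to 1, 1 to 0 and 2 to 1.

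Samples of the same replicate number did not deviate together at day 0 or day 7 (mean correlation 0.0083 and -0.036). In the fit of day 7 with forskolin the mean was 0.017, with 10 of 45 pairs over 0.1 and the highest at 0.352, so not every pair did, and the number was taken as a name only. A replicate block left 179 of 183 results with the same label, where a count of members within a set ratio of the main one kept its label. It took the count for the forskolin response of the mutant against full-length NFIA from 2 to 1, with Mef2d lost there (limma adjusted p = 0.0534). The difference of Mef2c between the mutant and control cells after forskolin was lost as well (limma adjusted p = 0.0621). The change of Eya1 with the mutant after forskolin passed (limma adjusted p = 0.0488). The member counts of these comparisons shifted with them, by too little to change their label.

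Leaving out a sample turned the sign of changes near 0 that had not passed. For the change from day 0 to day 7 the ranges were -0.00229 to 0.105 for Mef2a in full-length NFIA against control cells, -0.0179 to 0.0913 for Six5 in the mutant against control cells and -0.00497 to 0.0877 for Mef2d in the mutant against full-length NFIA. For forskolin they were -0.0198 to 0.0637 for Mef2a and -0.0256 to 0.0576 for Mef2d in control cells, -0.108 to 0.0313 for Eya4 with full-length NFIA and -0.0192 to 0.0901 for Mef2d with the mutant. For the difference in forskolin response they were -0.101 to 0.199 for Mef2c and -0.0326 to 0.0706 for Six4 in full-length NFIA against control cells, -0.0393 to 0.0700 for Mef2d in the mutant against control cells and -0.0178 to 0.187 for Mef2a in the mutant against full-length NFIA. Between constructs they were -0.0567 to 0.0824 for Six5 in the mutant against full-length NFIA at day 7, and after forskolin -0.0218 to 0.0497 for Mef2d in full-length NFIA against control cells, -0.173 to 0.0227 for Six5 in the mutant against control cells and -0.0796 to 0.0213 for Eya1 in the mutant against full-length NFIA. The cause was not tested.

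Leaving out a sample assumes that those left vary like the other groups.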
